A study of Macaca mulatta with 8 samples.

Results

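The genes described here are the innate sensors of foreign nucleic acid and of viral capsids, with the adaptors, the kinase and the transcription factor that carry their signal. The list named 10 genes, and each was taken by its symbol in the gene annotation of the count matrices. The matrices held 9 of the 10 among 26533 features: TLR9, TLR2, MYD88, CGAS, IFI16, ZBP1, MAVS, TBK1 and IRF3. IFIH1, a sensor of double-stranded RNA, was not found under that symbol and was not analysed here.

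An adeno-associated virus (AAV) vector brings a single-stranded DNA genome into the cell inside a protein capsid. TLR9 recognises DNA rich in unmethylated CpG inside endosomes and TLR2 recognises components at the cell surface, and both signal through the adaptor MYD88. In the cytosol CGAS binds double-stranded DNA and makes a cyclic dinucleotide that activates STING1, IFI16 binds DNA and ZBP1 binds nucleic acid in the Z form. MAVS is the mitochondrial adaptor of the RNA sensors. The STING1 and MAVS branches meet at the kinase TBK1, which phosphorylates the transcription factor IRF3 to switch on type I interferon genes. Microglia, the resident macrophages of the retina, are known for carrying many of these receptors.

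The data were 8 single-cell RNA libraries, made with a 5′ droplet kit, of neural retina from 2 wild-type male rhesus macaques. NHP1, aged 5 years, had received the AAV2-CAG-hRPE65 vector in both eyes, with a promoter that is active in most cell types, and gave 1 library of each eye that is labelled uninjected. NHP2, aged 6 years, had received AAV8-GRK1-hRPGR and AAV8-GRK1-mScarlet in separate blebs of each eye, under a photoreceptor promoter, and gave a library of the uninjected area, of the hRPGR bleb and of the mScarlet bleb of each eye. All 4 eyes were given triamcinolone and an ointment of dexamethasone and antibiotics. The left eyes were given the anti-TNF antibody adalimumab as well, repeated every 4 weeks. Retina was taken at a single late time, months after the vectors were given, so earlier responses were not sampled. The hRPGR vector was of engineering grade and given at the higher dose and the mScarlet vector was of research grade, so that transgene, dose and preparation cannot be told apart. Each group of NHP2 was thus the right and the left eye of the same animal, p-values measured the spread between its libraries, and left and right eyes differed in adalimumab throughout.

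The libraries held 90634306 to 146519011 UMIs (unique molecular identifiers, 1 per captured transcript) and 8831 to 13261 cells with at least 1500 UMIs after doublets were left out. Between 9.73% and 10.9% of the cells of a library had a barcode that was also a cell in another library. Each library listed 678289 to 717865 barcodes, and the sharing that independent reuse of barcodes would give was not computed. The right uninjected library of NHP2 held 6643 coRPGR UMIs in its rod-like cells, 185 CPM, and the left one held 0. The left library of NHP1 held 16124 huRPE65 UMIs in rod-like cells, 610 CPM, and the right one held 1. Free RNA had 300 CPM of coRPGR in the former library and 452 CPM of huRPE65 in the left library of NHP1. The right mScarlet library held 816 coRPGR UMIs in rod-like cells, 26.2 CPM, and the left one 15. Where these UMIs came from was not tested. The labels of these libraries do not name these transgenes, and the largest member differences and the called pathway genes are given also without the right uninjected library of NHP2. Such a fit leaves 1 uninjected library, so a lost call cannot be told apart from the loss of a replicate. Levels are counts-per-million values (CPM), the UMIs of a gene relative to all UMIs summed over a cell class in a library, and classes are called X-like after their marker genes.

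TLR2 was the member held most narrowly by a single class. Of its 6404 UMIs in cells 92.8% were in myeloid-like cells, and its level there ranged from 301 to 489 CPM over the 8 libraries with a median of 352. Within the class the level was uneven, at 487 in a cluster of 785 cells and at 28.0 in the other 1139 cells. Müller glia-like cells came next, with a median of 5.44 and a range from 2.07 to 14.5, which did not overlap the myeloid-like range. In rod-like cells TLR2 gave 30 UMIs in all libraries together, a pooled level of 0.121 CPM. Barcodes of 100 to 1000 UMIs, which were taken as free RNA, had 1.49. Whether cells with little RNA were among these barcodes was not tested. The TLR2 gene spans chr5:151322435-151347090 on the plus strand of the Mmul_10 build.

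TLR9 was close to the limit of detection in every library, with 110 UMIs in all cells. B/plasma-like cells held 45 of these and bipolar-like cells 35, whereas rod-like cells held 5 and T/NK-like cells 0, which allows up to 0.622 CPM in the latter. Among B/plasma-like cells, 24 UMIs came from the 130 cells of a cluster led by CD74 and other antigen presentation genes with the B cell marker MS4A1, a level of 22.6 CPM. Another 21 came from the 456 cells of a cluster led by features without a symbol and by JCHAIN, a gene of antibody-secreting cells, at 1.82. In bipolar-like cells the pooled level was 0.785 CPM against 0.0455 in free RNA and 0.0202 in rod-like cells, and 7 of the 8 libraries had at least 1 UMI. The range in bipolar-like cells, 0 to 1.27 CPM, overlapped that of every retinal class. TLR9 lies at chr2:108361487-108379379 on the minus strand and overlaps an uncharacterised locus on the other strand.

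MYD88 had its highest medians in T/NK-like cells, 22.5 CPM in 7 libraries, and in myeloid-like cells, 17.5 in 8 libraries, and these ranges overlapped each other. Müller glia-like cells had a median of 4.72 with a range from 2.58 to 6.00, and the level in rod-like cells went from 0.334 to 2.37. Rod-like cells gave 278 of its 1252 UMIs, at a pooled level of 1.12 CPM that was near the 1.02 of free RNA. MAVS was spread over all classes. Its median was 18.8 CPM in Müller glia-like cells, with a range from 13.5 to 24.8 that lay above the range in bipolar-like cells. The medians of 9.68 in bipolar-like, 7.22 in cone-like and 7.10 in rod-like cells had ranges that overlapped from each to the next. The genes span chr2:93558391-93562235 (MYD88, plus strand) and chr10:62613465-62654490 (MAVS, minus strand).

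CGAS, IFI16 and ZBP1 were genes of immune cells in these libraries. Myeloid-like, T/NK-like and B/plasma-like cells held 75%, 10% and 10.1% of the 1200 CGAS UMIs in cells, in that order. Of the 10172 IFI16 UMIs they held 64.1%, 19.9% and 9.65%, and of the 889 ZBP1 UMIs 41.8%, 27.1% and 28.3%. The CGAS median was 37.3 CPM in myeloid-like and 27.0 in T/NK-like cells, with overlapping ranges, and 0.0309 in rod-like cells. IFI16 had medians of 428 in both myeloid-like and T/NK-like cells and was also high in mural-like cells, the pericytes and smooth muscle of vessels, with 133 in the 2 libraries that had at least 20 of them. ZBP1 had a median of 47.6 in T/NK-like, 21.6 in B/plasma-like and 21.4 in myeloid-like cells, again with overlapping ranges.

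Photoreceptors had almost none of these 3 sensors. Rod-like cells held 17 UMIs of CGAS, 92 of IFI16 and 2 of ZBP1 among 248057515 UMIs of the class, and cone-like cells held 11, 21 and 5. The pooled levels in rod-like cells, 0.0685 for CGAS, 0.371 for IFI16 and 0.00806 for ZBP1, were below those in free RNA, 0.401, 4.32 and 0.256, so these UMIs cannot be told from free RNA. Of the 92 IFI16 UMIs in rod-like cells, 40 were in the right hRPGR library, whose free RNA also had the highest IFI16 level, 12.8 CPM. CGAS spans chr4:99487487-99516865 on the plus strand, IFI16 chr1:91909499-91951972 and ZBP1 chr10:92779584-92795798 on the minus strand.

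TBK1 and IRF3 were found in all 12 named classes. For TBK1 the medians ran from 46.7 CPM in ganglion-like cells to 12.8 in RPE-like cells (retinal pigment epithelium), with 33.3 in rod-like, 26.7 in cone-like and 24.2 in Müller glia-like cells. The ranges of rod-like and cone-like cells did not overlap, and those of all other neighbours in the order did. IRF3 had a median of 93.3 CPM in T/NK-like cells, above the range of mural-like cells that followed at 44.4, and 25.9 in rod-like cells. In rod-like cells, the rod photoreceptors by their markers, TBK1 stayed between 30.4 and 35.6 and IRF3 between 20.7 and 29.9 over the 8 libraries. TBK1 spans chr11:64001821-64050597 on the plus strand, and IRF3 spans chr19:49629971-49637050 on the minus strand and overlaps BCL2L12 on the other strand.

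**Figure D1:**
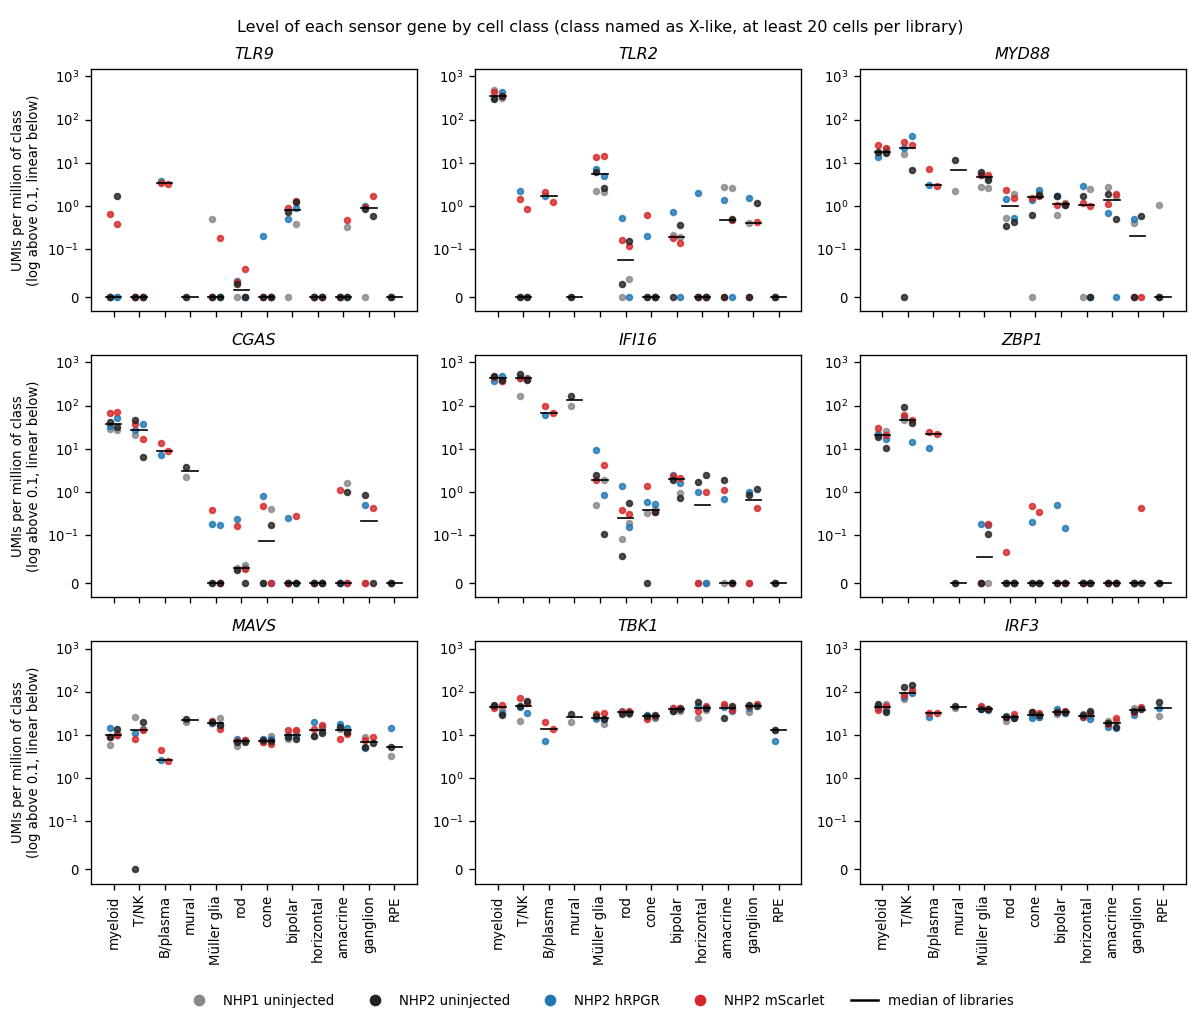
CPM in a cell class (y axis, logarithmic above 0.1 and linear below) for the 9 genes across 12 classes; each point is a library with at least 20 cells of the class, coloured by group, and the line is the median. TLR2 stands at a median of 352 in myeloid-like cells and 5.44 in Müller glia-like cells, CGAS, IFI16 and ZBP1 are high in the 3 immune classes, and MAVS, TBK1 and IRF3 are present in all classes.

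The genes whose class pattern was most like that of each member were sought over the 12 class means by Pearson correlation of log2 levels, as a description only. TLR2 was most like SLC2A5 (r = 0.99) and CLDN1 (r = 0.97), and CGAS like CCRL2 and PYCARD (r = 0.99 for each). ZBP1 was most like CD69 and SASH3 (r = 1.00 for each), IFI16 like RCSD1 and ZC3H12A (r = 0.99 for each) and MYD88 like ZC3HAV1 and PLSCR1 (r = 0.97 for each). The members found in every class had lower values, with MAVS nearest to CTDSP2 (r = 0.96) and SEPTIN2 (r = 0.92), TBK1 to TATDN2 (r = 0.97) and HEATR1 (r = 0.96) and IRF3 to RPL31 (r = 0.90) and RNF167 (r = 0.89). TLR9 was below 5 CPM in every class and was not compared. All these points share the same libraries, and the class means rest on unequal depth.

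The sensors of immune cells differed strongly between areas when all cells of a library were summed. TLR2 stood at 31.3 and 25.3 CPM in the right and left mScarlet libraries of NHP2, at 13.7 and 9.45 with hRPGR and at 3.78 and 3.43 in uninjected retina. CGAS stood at 6.09 and 6.18 with mScarlet, 1.94 and 1.32 with hRPGR and 0.544 and 0.362 without injection. IFI16 was at 46.4 and 45.0 with mScarlet, at 21.1 and 13.9 with hRPGR and at 6.92 and 5.23 without injection. Each of these genes was in the same order in both eyes, mScarlet above hRPGR above uninjected. ZBP1 was too, with 4.38 and 4.95, 1.59 and 0.474, and 0.336 and 0.265 for these areas.

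Myeloid-like cells followed the same order in number, T/NK-like cells did so in the right eye only and B/plasma-like cells in the left eye only. Myeloid-like cells numbered 525 and 461 in the right and left mScarlet libraries, 444 and 163 in the hRPGR libraries and 99 and 91 in the uninjected ones, and T/NK-like cells 243 and 436, 105 and 36, and 24 and 36. B/plasma-like cells numbered 120 and 320, 125 and 8, and 1 and 4 in these areas. Within myeloid-like cells ZBP1 kept that order in both eyes, at 30.6, 21.4 and 19.1 CPM in the right eye and 21.3, 17.1 and 10.2 in the left. CGAS kept it in the left eye (70.5, 52.2 and 32.4) and not in the right, TLR2 in the right eye and not in the left, and IFI16 in neither. IFI16 stood at 411 ± 68.8 CPM with mScarlet, 430 ± 89.0 with hRPGR and 443 ± 64.9 without injection (SD, n = 2 libraries each), with overlapping values. For TLR2 the same levels were 392 ± 50.7, 373 ± 82.0 and 324 ± 33.0.

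**Figure D2:**
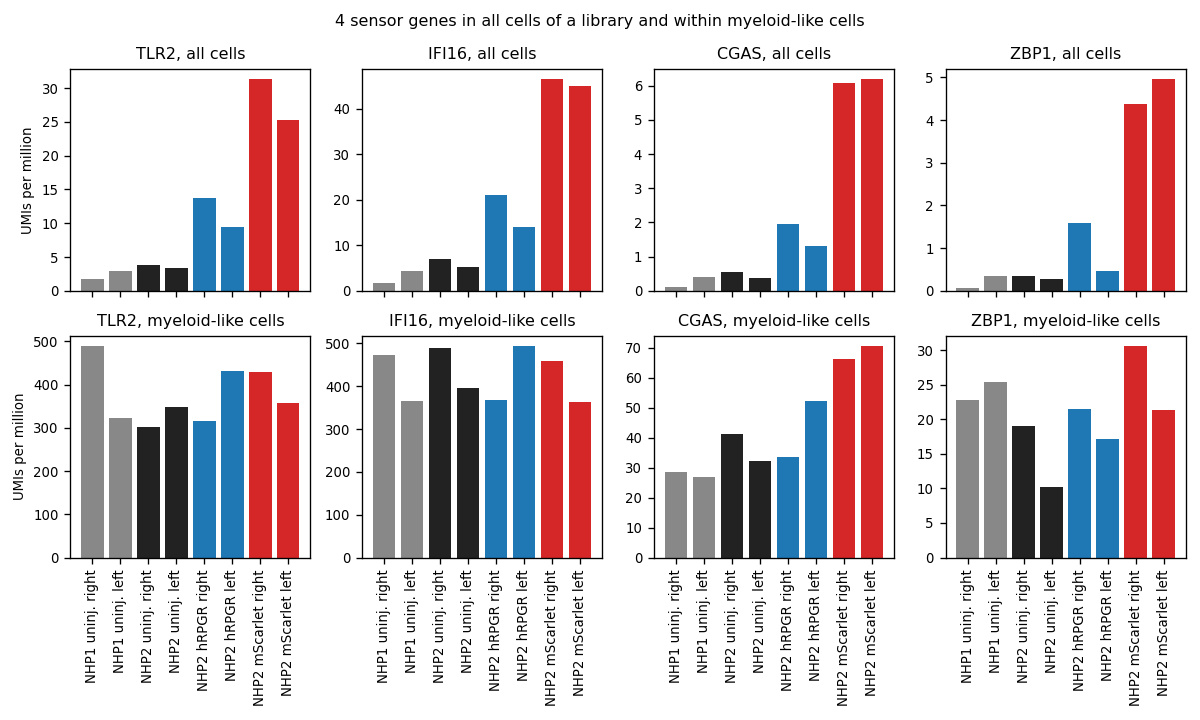
CPM (y axis) of TLR2, IFI16, CGAS and ZBP1 in each of the 8 libraries (bars, 1 per library, coloured by group), over all cells in the upper row and within myeloid-like cells in the lower row. Over all cells the mScarlet libraries are the highest for each gene, at 31.3 and 25.3 for TLR2; within myeloid-like cells IFI16 lies between 363 and 493 in every library.

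Comparing the mScarlet bleb with the uninjected area of NHP2 asked whether cells of the bleb with the reporter vector carried more sensor transcript than cells of the same class outside it. No member passed the test in any of the 5 classes tested, with edgeR's quasi-likelihood test over the 6 libraries of NHP2 and a threshold of 0.05 on the adjusted p-value. In rod-like cells 0 of 5 tested members were called, against 1.02% of all genes tested. The other classes gave 0 of 3 members in cone-like cells (0.654% of all genes), 0 of 4 in bipolar-like cells (0.577%), 0 of 6 in Müller glia-like cells (0.324%) and 0 of 8 in myeloid-like cells (6.51%). The members with an unadjusted p under 0.05 were 1 in rod-like cells (20.8% of all genes), 0 in cone-like (15.8%), 1 in bipolar-like (10.4%), 1 in Müller glia-like (14.6%) and 2 in myeloid-like cells (22.5%), counts that lay near those shares of all genes. DESeq2 called 1 member in rod-like cells (8.91% of all genes), 1 in Müller glia-like cells (3.21%) and 0 in cone-like (2.46%), bipolar-like (0.723%) and myeloid-like cells (6.88%).

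MYD88 in rod-like cells had the largest difference. The right and left mScarlet blebs gave 74 and 54 UMIs, 2.37 and 1.55 CPM, and the right and left uninjected areas gave 12 and 11 UMIs, 0.334 and 0.428. The hRPGR blebs lay at 1.43 and 0.528, and the mScarlet and uninjected values did not overlap. The fitted difference was 2.29 ± 0.55 on the log2 scale (SE), a fold of 4.90, with an adjusted p of 0.090. It was 2.25 with the eye as a block (adjusted p = 0.154). The difference was 2.16 without the right and 2.42 without the left uninjected library, each fit with only the other one in that area. DESeq2 gave 2.30 with an adjusted p of 0.015, and the edgeR call was also made without the filter on low counts and without the right or without the left hRPGR library, with adjusted p-values of 0.021 to 0.030, so whether it was called depended on the tool, the filter and those libraries. These last 3 settings called 4.09%, 7.95% and 7.54% of all genes.

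Free RNA and the markers of other cells are given beside MYD88 in rods. The MYD88 level in free RNA was 0.669 and 1.58 CPM in the right and left mScarlet libraries and 0.536 and 0.582 in the uninjected ones. In the right eye the rod-like cells of the mScarlet bleb, at 2.37, stood above their free RNA, and in the left eye, at 1.55, they did not. The right and left hRPGR libraries had 2.10 and 0.620 in free RNA, above the 1.43 and 0.528 of their rod-like cells. The summed level of the 11 myeloid markers in rod-like cells was 10.7 and 15.2 CPM in the mScarlet libraries against 4.87 and 6.61 in the uninjected ones, with at most 1 of the 11 at 0. In UMIs these were 335 and 531 with mScarlet and 175 and 170 without injection. The right and left hRPGR blebs gave 635 and 203 UMIs of these markers in rod-like cells. The 10 T/NK markers summed to 7.51 and 8.18 against 7.01 and 7.35, with 2 at 0 in each mScarlet library and 6 in each uninjected one. The 6 B/plasma markers summed to 217 and 276 against 70.9 and 75.4, with 1 to 5 of them at 0. Their part in the result was not tested. The left NHP1 library, in which huRPE65 was found, had 51 MYD88 UMIs in rod-like cells, 1.93 CPM, and the right one 17, 0.524, with 1.68 and 0.198 in free RNA; this is 1 library on each side and was not tested.

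In Müller glia, the support cells of the retina, TLR2 was the member that stood apart. The right and left mScarlet blebs had 71 and 80 UMIs, 13.4 and 14.5 CPM, the uninjected areas 29 and 24 UMIs, 6.00 and 2.59, and the hRPGR blebs 7.05 and 4.88. Both mScarlet values lay above the other 6 libraries, NHP1 included. The difference was 1.72 ± 0.40 on the log2 scale, a fold of 3.29, with an adjusted p of 0.140. Without the right uninjected library it was 2.37 (adjusted p = 0.025), without the left one 1.13 (adjusted p = 0.365), and DESeq2 gave 1.67 (adjusted p = 0.034). Whether it was called depended on the tool and on which uninjected library was kept, and without the right one 3.31% of all genes were called.

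TLR2 is a gene of myeloid cells here, so their markers are given beside it. The 11 myeloid markers summed to 22.2 and 36.9 CPM in Müller glia-like cells of the right and left mScarlet blebs, with hRPGR to 37.2 and 18.8 and without injection to 16.1 and 9.19, and between 0 and 3 of the 11 were at 0. There were 0.602 and 0.394 TLR2 UMIs per myeloid marker UMI in Müller glia-like cells of the mScarlet blebs, where myeloid-like cells of the same libraries had 0.0354 and 0.0254 and free RNA 0.00828 and 0.00590. In Müller glia-like cells the ratio was 0.372 and 0.282 in the uninjected areas and 0.189 and 0.259 in the hRPGR blebs. The part of RNA from myeloid cells in the TLR2 difference was not tested.

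In myeloid cells CGAS and ZBP1 had the lowest p-values of the members. CGAS gave 303 and 370 UMIs in the right and left mScarlet blebs, 66.1 and 70.5 CPM, against 28 and 19 UMIs, 41.1 and 32.4, in the uninjected areas. The hRPGR blebs had 33.5 and 52.2 and the NHP1 libraries 28.4 and 26.9, all below both mScarlet values. The difference was 1.03 ± 0.28 on the log2 scale, a fold of 2.04, with an adjusted p of 0.065, and the call was made without the filter on low counts and without the right or without the left hRPGR library (adjusted p of 0.0016, 0.036 and 0.032), settings that called 8.66%, 7.42% and 6.72% of all genes. It was 1.25 without the right uninjected library (adjusted p = 0.143).

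ZBP1 gave 140 and 112 UMIs in myeloid-like cells of the mScarlet blebs, 30.6 and 21.3 CPM, and 13 and 6 UMIs, 19.1 and 10.2, in the uninjected areas. These values did not overlap, but both NHP1 libraries, at 22.7 and 25.4, and the right hRPGR bleb, at 21.4, lay above the left mScarlet value. The difference of 0.93 ± 0.37 had an adjusted p of 0.177. It was 1.505 without the right uninjected library (adjusted p = 0.178) and 0.55 without the left one (adjusted p = 0.496). TLR2 differed by 0.42 ± 0.24, MYD88 by 0.57 ± 0.32 and IFI16 by 0.03 ± 0.26, none of them called. Myeloid-like cells were made of a cluster of 785 cells with a median of 14069 UMIs and of 1139 cells with a median of 2362. The deeper cluster had 70.9 CPM of CGAS and the shallower 13.1. For ZBP1 these levels were 27.2 and 11.8, for MYD88 23.6 and 11.8 and for IFI16 484 and 183, whereas IRF3 was lower in the deeper cluster, at 41.3 against 46.4. Of the cells of the class the deeper held 38.7% and 46.6% in the right and left mScarlet libraries and 35.4% and 48.4% in the uninjected ones. CPM weights cells by their UMIs, and shares of UMIs by cluster are not given here. The class had 4581400 and 5248499 UMIs in 525 and 461 cells with mScarlet. Without injection it had 681663 and 587211 UMIs in 99 and 91 cells. The part of this mix in the differences of CGAS and the other members was not tested.

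**Figure D3:**
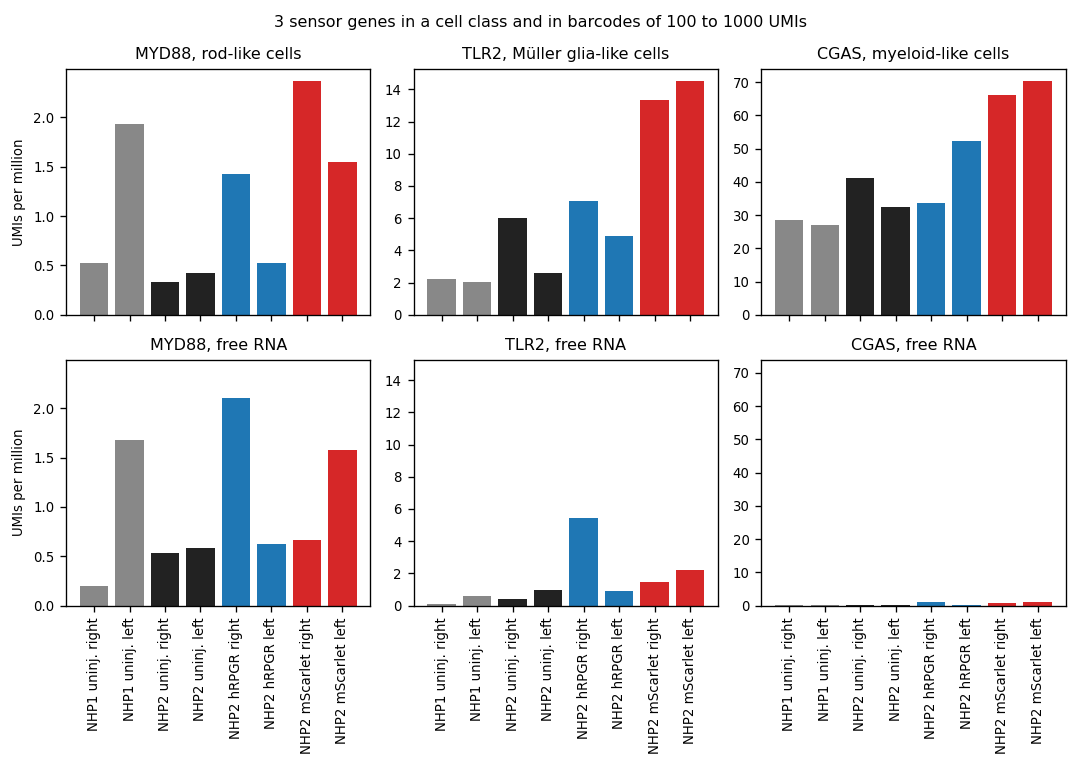
CPM (y axis) in each of the 8 libraries (bars, 1 per library, coloured by group) for MYD88 in rod-like cells, TLR2 in Müller glia-like cells and CGAS in myeloid-like cells in the upper row, and for the same gene in free RNA (barcodes of 100 to 1000 UMIs) on the same scale below. The mScarlet bars are 2.37 and 1.55 for MYD88, 13.4 and 14.5 for TLR2 and 66.1 and 70.5 for CGAS; free RNA reaches 2.10 for MYD88, in the right hRPGR library, and is barely above 0 for CGAS on this scale.

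The members found in every class gave small differences with narrow errors in rods. TBK1 in rod-like cells stood at 33.4 and 35.4 CPM in the mScarlet blebs and 31.0 and 32.9 in the uninjected areas, a fitted difference of 0.03 ± 0.07 on the log2 scale. IRF3 had 26.5 and 29.9 against 26.2 and 24.3, a difference of 0.08 ± 0.10, and MAVS 7.19 and 7.61 against 6.96 and 6.65, a difference of 0.04 ± 0.14. Each fitted difference, which includes TMM scaling, was smaller than its SE (adjusted p of 0.833, 0.681 and 0.894). The log2 differences in the right and left eye were 0.01 and 0.06 for TBK1, -0.08 and 0.25 for IRF3 and -0.05 and 0.14 for MAVS. These too include scaling between libraries, so that in the right eye IRF3 and MAVS have the other sign in plain CPM. MAVS in bipolar-like cells, the relay neurons after the photoreceptors, had 12.6 and 13.1 CPM in the mScarlet blebs against 8.88 and 7.99 in the uninjected areas without overlap, and the difference of 0.61 ± 0.19 had an adjusted p of 0.329 (0.70 and adjusted p = 0.541 without the right uninjected library).

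IFI16 passed the filter on low counts in rod-like, bipolar-like and Müller glia-like cells, though its counts there were few. In Müller glia-like cells it gave 10 and 23 UMIs with mScarlet and 12 and 1 without injection, with overlapping levels and a difference of 1.47 ± 1.39 that went to 4.53 without the right uninjected library and to 0.20 without the left one. TLR9 passed the filter in none of the 5 classes, and CGAS and ZBP1 passed it in myeloid-like cells only.

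The same test of the bleb with the therapeutic vector called no member. There were 0 of 5 members called in rod-like cells (0% of all genes tested), 0 of 3 in cone-like cells (0.0172%), 0 of 4 in bipolar-like cells (0%), 0 of 6 in Müller glia-like cells (0.00771%) and 0 of 8 in myeloid-like cells (0%). None of the tested members had an unadjusted p under 0.05, where 4.9%, 6.18%, 3.36%, 3.62% and 6.49% of all genes did in these classes. DESeq2 called 0 members in each class and 0.483%, 0.361%, 0.0846%, 0.193% and 0.0804% of all genes. Both comparisons share the uninjected libraries and 1 estimate of the spread.

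The hRPGR libraries of the right and left eye differed from each other. MYD88 in rod-like cells gave 42 UMIs, 1.43 CPM, in the right bleb and 17, 0.528, in the left, and the left value was near the 0.428 of the uninjected area of that eye. The difference from the uninjected areas was 1.28 ± 0.56 on the log2 scale (adjusted p = 0.948), and it ran from 0.44 to 1.82 over the alternatives. The right library also had 2.10 CPM of MYD88 in free RNA, above its rod-like cells, and the left one 0.620. In Müller glia-like cells IFI16 gave 51 UMIs in the right bleb and 5 in the left, 9.22 and 0.871 CPM, and the right library's free RNA had 12.8. In cone-like cells IRF3 stood at 24.0 and 26.2 CPM in the hRPGR blebs against 34.2 and 28.1 in the uninjected areas, a difference of -0.35 ± 0.15 (adjusted p = 0.800).

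**Figure D4:**
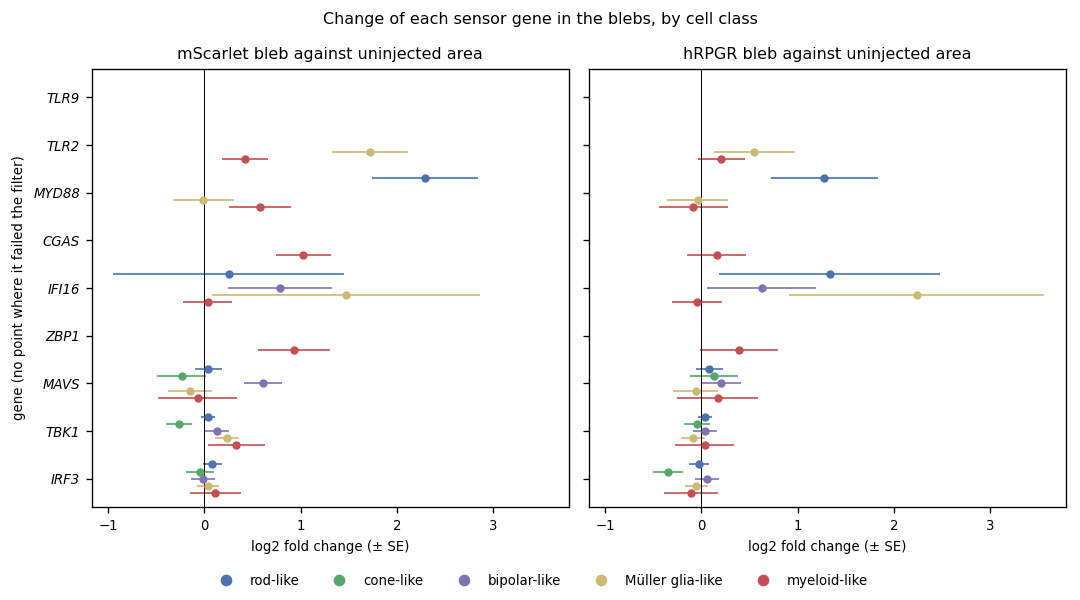
Fitted log2 fold change with its SE (x axis) of each gene (y axis) in the mScarlet bleb (left panel) and the hRPGR bleb (right panel) against the uninjected area, from the 6 NHP2 libraries, with 1 coloured point per cell class. No point passed the test; MYD88 in rod-like cells is at 2.29 and 1.28, TLR2 in Müller glia-like cells at 1.72 and 0.55 and CGAS in myeloid-like cells at 1.03 and 0.16.

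Set directly against the hRPGR bleb, the mScarlet bleb gave 0 of 5 members called in rod-like cells (0% of all genes). MYD88 differed by 1.02 ± 0.50 on the log2 scale (adjusted p = 0.717; 0.47 to 1.85 over the alternatives), and TBK1 differed by 0.0004 ± 0.07. The left eye of NHP2, with adalimumab, against its right eye gave 0 of 5 as well (0% of all genes). MYD88 was at -0.65 ± 0.40 and TBK1 at -0.003 ± 0.07 in the fit with the area as a term. The libraries on each side were areas of the same eye, not replicate eyes, so that eye and adalimumab cannot be told apart. No member had an unadjusted p under 0.05 in either comparison (7.44% and 0.96% of all genes), and DESeq2 called 0 members in each (0.911% and 0.0829%).

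Within the blebs rod-like cells were split by whether they held a UMI of the bleb's own transgene after each was thinned to 1500 UMIs. There were 4771 rod-like cells with and 514 without in the right hRPGR bleb, 3084 and 2604 in the left, 1554 and 3293 in the right mScarlet bleb and 1459 and 4174 in the left. With the library as a term, 0 of 5 members were called (0.0148% of all genes), 1 had an unadjusted p under 0.05 (5.84%) and DESeq2 called 0 (0.133%).

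Transgene UMIs were also found in free RNA and in other classes. In the hRPGR blebs coRPGR in rod-like cells was at 3873 CPM (right eye) and 1415 CPM (left eye), and in free RNA at 3482 and 2251. The level in T/NK-like cells was 568 and 145, in bipolar-like cells 613 and 146 and in Müller glia-like cells 566 and 189, all below rod-like cells of the same library. T/NK-like cells, in which a photoreceptor promoter should not be active, held a thinned coRPGR UMI in 58.1% and 13.9% of cells, and rod-like cells in 90.3% and 54.2%. In the mScarlet blebs the transgene stood at 312 and 236 CPM in rod-like cells against 56.9 and 58.4 in free RNA, with a UMI in 32.1% and 25.9% of rod-like and 0.412% and 0.688% of T/NK-like cells. How many of the UMIs behind the split came from free RNA was not tested. Median depth before thinning was 4721.5 to 5556 UMIs in rod-like and 3704 to 5010 in T/NK-like cells of these libraries.

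MYD88 was higher in the cells with a transgene UMI in 4 of 4 libraries, on few counts. It stood at 2.92 CPM with (30 UMIs) and 2.11 without (44 UMIs) in the right mScarlet bleb and at 2.45 (22 UMIs) and 1.24 (32 UMIs) in the left. The right hRPGR bleb gave 1.47 (39 UMIs) and 1.06 (3 UMIs) and the left one 0.595 (10 UMIs) and 0.455 (7 UMIs). The difference was 0.60 ± 0.24 on the log2 scale, with an adjusted p of 0.842. IFI16 had 1.28 with (34 UMIs) and 2.13 without (6 UMIs) in the right hRPGR bleb, a fitted difference over the 4 libraries of -0.87 ± 0.45 (adjusted p = 0.847), and was lower in the cells with a transgene UMI in 3 of 4 libraries, with 1 to 10 UMIs in each set of cells of the other 3 libraries. TBK1 differed by -0.06 ± 0.05, IRF3 by -0.08 ± 0.06 and MAVS by 0.07 ± 0.11.

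**Figure D5:**
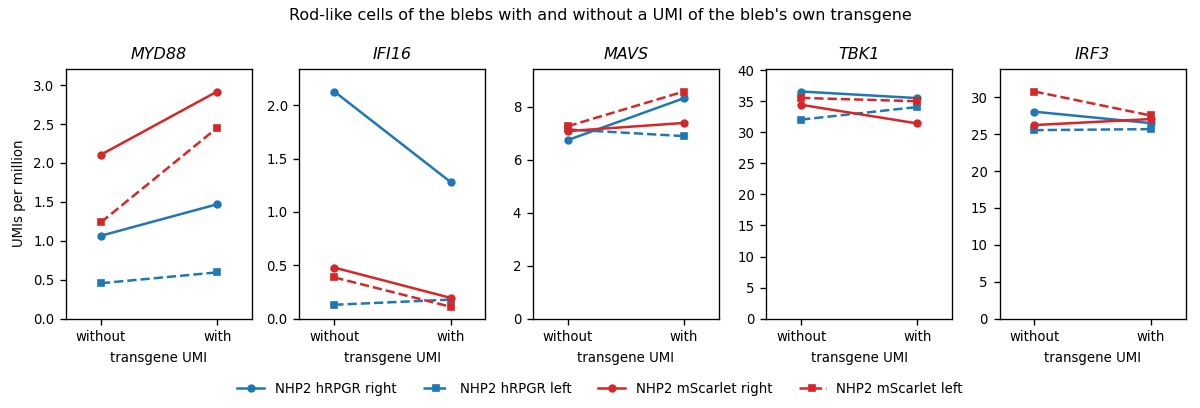
CPM (y axis) of the 5 tested genes in rod-like cells without and with a UMI of the bleb's own transgene (x axis); each line joins the cells of 1 of the 4 bleb libraries, coloured by vector, solid for right and dashed for left eyes. MYD88 is higher in the cells with a transgene UMI in all 4 libraries, on 3 to 44 UMIs, at 2.92 against 2.11 in the right mScarlet bleb.

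Lists of 43 further genes of the same pathways were counted in each comparison: receptors and their trafficking, Toll-like receptor adaptors and kinases, cytosolic DNA sensing, cytosolic RNA sensing, and shared kinases and transcription factors. In the mScarlet bleb 2 of 33 tested genes rose in rod-like cells, 2 of 30 in cone-like, 2 of 33 in bipolar-like, 1 of 34 in Müller glia-like and 2 of 42 in myeloid-like cells, and 0 fell in any class. The shares of all genes called in these classes were 1.02%, 0.654%, 0.577%, 0.324% and 6.51%, and no test compared the pathway genes with all genes. The median of the tested pathway genes on the log2 scale was 0.38 in rod-like, 0.24 in cone-like, 0.16 in bipolar-like, 0.12 in Müller glia-like and 0.33 in myeloid-like cells, and that of all genes lay between -0.0030 and 0.0085. In rod-like cells the medians of the single lists, each over 4 to 9 tested genes, lay between -0.14 and 0.86, and the lists were not compared by a test. In the hRPGR bleb, and in the comparisons between blebs, between eyes and by transgene, 0 of the tested genes were called.

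The genes that rose in the retinal classes were IRF1 and IRF7, transcription factors of the interferon system. Their levels in free RNA are not given here, and the part of RNA from other cells in these rises was not tested. IRF1 in bipolar-like cells had 47.1 and 55.7 CPM in the right and left mScarlet blebs against 4.07 and 6.57 in the uninjected areas, a difference of 3.27 ± 0.26 (adjusted p = 0.0016; 0.0091 without the right uninjected library), and was called under all 12 alternatives. The hRPGR blebs stood between, at 25.0 and 15.9, and were not called. In rod-like cells it had 110 and 137 against 11.7 and 22.1, a difference of 2.81 ± 0.43 (adjusted p = 0.048), with 69.9 and 29.4 in the hRPGR blebs. IRF7 in rod-like cells had 19.8 and 17.5 against 2.62 and 2.68, a difference of 2.74 ± 0.40 (adjusted p = 0.044), with 7.97 and 3.01 in the hRPGR blebs. In rod-like cells both calls were lost with the eye as a block (adjusted p = 0.119 and 0.083) and without the right uninjected library (adjusted p = 0.198 for each). Of 13 alternatives IRF1 was called in 6 (adjusted p up to 0.393) and IRF7 in 7 (up to 0.348), while the difference stayed between 2.46 and 3.27 for IRF1 and between 2.62 and 2.85 for IRF7.

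IRF1 also rose in cone-like cells, by 3.36 ± 0.36 (adjusted p = 0.011; 0.061 without the right uninjected library), and in Müller glia-like cells, by 2.58 ± 0.27 (adjusted p = 0.027; 0.059 with the block and 0.014 without the right uninjected library). IRF7 rose in cone-like cells by 2.59 ± 0.40 (adjusted p = 0.042; 0.098 with the block and 0.214 without that library) and in bipolar-like cells by 2.95 ± 0.34 (adjusted p = 0.0065; 0.039 without that library). In the hRPGR blebs IRF1 was at 9.51 and 8.31 CPM in cone-like and 37.6 and 41.1 in Müller glia-like cells, above the 2.36 and 5.28 and the 22.6 and 17.1 of the uninjected areas. IRF7 there was at 2.58 and 1.56 in cone-like and 4.62 and 3.41 in bipolar-like cells, against 1.26 and 1.93 and 1.48 and 1.07. Of 12 alternatives IRF1 was called in 10 in cone-like cells (adjusted p up to 0.061) and in 7 in Müller glia-like cells (up to 0.122), and IRF7 in 7 in cone-like cells (up to 0.235) and in 9 in bipolar-like cells (up to 0.096). Over these alternatives the IRF1 difference stayed between 2.87 and 4.01 in cone-like and between 2.18 and 2.89 in Müller glia-like cells. The IRF7 difference stayed between 2.30 and 2.90 in cone-like and between 2.72 and 3.21 in bipolar-like cells. In myeloid-like cells TRAF3, an adaptor between the receptors and TBK1, rose by 1.52 ± 0.32 (adjusted p = 0.027). It had 112 and 156 CPM in the mScarlet blebs against 33.7 and 71.5 in the uninjected areas and 89.9 and 74.2 in the hRPGR blebs. Over 12 alternatives TRAF3 differed by 1.07 to 2.10 on the log2 scale. Without the right uninjected library it was not called (adjusted p = 0.121), and with the block it was (adjusted p = 0.030). It was called in 9 of 12 alternatives, with an adjusted p of up to 0.153.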

How the data were processed

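Retina of 2 macaques was measured by 5′ single-cell RNA sequencing in 8 libraries. The deposited values are raw UMI counts, 1 matrix of genes by barcodes for each library. The header of the matrices names Cell Ranger 8.0.1, the submitters' sample records name the build Mmul_10, and the features include the transgenes. Whether counting used strand is not given in the sources used here. Groups came from the labels. The members and all lists were chosen with earlier results of these data known.

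A cell was a barcode of 1500 UMIs and 300 genes or more, with no more than 20% of its UMIs mitochondrial. This gave 91796 cells, from which 8604 called doublets were removed. The other 83192 were clustered (scanpy 1.11.5, Python 3.11.15) into 63 clusters, of which 16 stayed unnamed and the rest were named from markers, with limits set after the clusters were seen. The study's removal of free RNA and its integration were not repeated, so classes may differ from its own. Median depth was 4606 to 6036 UMIs a cell, and limits for a count of 0 (3 counts) cover counting error only.

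Counts were summed per class and library and tested over all genes with edgeR 4.0.16 (R 4.3.3; quasi-likelihood, filterByExpr, TMM, Benjamini-Hochberg, threshold 0.05) on the 6 NHP2 libraries, with 1 spread for 3 areas. An exact permutation test of 2 against 2 libraries cannot go below 0.333. Alternatives were DESeq2 1.42.0, RLE size factors, no filter, doublets kept, cells with at least 3000 UMIs, the eye as a block, unnamed rod-led clusters added and each library left out. Leaving out a library left 1 in its area. Same-numbered samples are the same eye of an animal by the labels, and the left minus right deviations of areas correlated over genes at 0.31, -0.41 and -0.21 in rod-like cells. In shares of all genes, a gene to which DESeq2 gave no adjusted p counts as not called. All members were named, and of 43 other pathway genes the called ones with the lowest p, up to 5 higher and 3 lower per comparison. Of the pathway genes called in myeloid-like cells, 1 is counted but not reported here.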

Additional observations from a re-analysis of the deposited data

Results flagged for a closer look

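For MAVS and TBK1 some cell classes were higher than the uninjected area in both eyes and other classes lower in both eyes. These differences between classes were not tested, and no class passed the test on its own. The log2 values include scaling between libraries, so their size and sign can differ from those of plain CPM. How many of all genes had such a pattern was not counted. MAVS in the mScarlet bleb was higher in bipolar-like cells (0.50 in the right and 0.68 in the left eye, on the log2 scale) and lower in cone-like cells (-0.18 and -0.30, mean -0.24). TBK1 in the mScarlet bleb was lower in cone-like cells (-0.31 and -0.18, mean -0.25). It was higher by 0.01 and 0.06 in rod-like, 0.20 and 0.06 in bipolar-like and 0.07 and 0.38 in Müller glia-like cells. In the hRPGR bleb MAVS was lower in Müller glia-like cells (-0.11 and -0.03, mean -0.066). It was higher by 0.08 and 0.09 in rod-like, 0.06 and 0.20 in cone-like and 0.12 and 0.28 in bipolar-like cells. TBK1 in the hRPGR bleb was higher in rod-like cells (0.05 and 0.02) and lower in Müller glia-like cells (-0.17 and -0.01, mean -0.092).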

How the results depend on the processing

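The number of members called was 0 in every comparison, and 149 of its recomputed values stayed at 0 while 9 became 1. In the mScarlet bleb DESeq2 called 1 member in rod-like cells (MYD88) and 1 in Müller glia-like cells (TLR2), and without the filter on low counts 1 was called in rod-like cells (MYD88) and 1 in myeloid-like cells (CGAS). Leaving out each library in turn gave 0 to 1 members in rod-like, in Müller glia-like and in myeloid-like cells: MYD88 and CGAS were called without the right and also without the left hRPGR library and TLR2 without the right uninjected library. The cause was not tested. The log2 difference ranged from 1.93 to 2.59 for MYD88 in rod-like cells (adjusted p from 0.015 to 0.451), from 1.13 to 2.37 for TLR2 in Müller glia-like cells (0.025 to 0.606) and from 0.84 to 1.25 for CGAS in myeloid-like cells (0.0016 to 0.269). The log2 differences of the called pathway genes lost their call in 39 recomputed values and kept it in 71. With the eye as a replicate block 0 members were called in each comparison, and of all genes in rod-like cells 4 in place of 148. Without the block of libraries, 0 members were called between rods with and without transgene UMIs. Each group was 2 eyes of 1 animal, and members with few UMIs, such as TLR9, could not be tested at this depth.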
